A study of Bos taurus with 8 samples.

Results

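This report describes 10 genes of the cell's defence against oxidants and reactive chemicals in rumen tissue: NFE2L2, GCLC, GCLM, GSR, GPX1, GPX2, TXNRD1, SRXN1, HMOX1 and GSTP1. They were taken by gene symbol from a deposited count table of 33132 genes, and all 10 listed symbols were found in it. The samples were rumen tissue of angus cross cattle, from 4 newborn male calves and from 4 grown steers, which are castrated males, with 1 RNA-seq library per animal. The series compared the 2 stages to study growth of the rumen after birth. The labels give no treatment, diet, exact age or batch, so age, castration and anything else that came with them cannot be told apart. The rumen, the fermentation chamber of the ruminant stomach, has a stratified squamous lining over connective tissue and smooth muscle. In such bulk tissue, fewer cells of a type and less RNA per cell cannot be told apart.

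NFE2L2 encodes NRF2, a transcription factor that is held in the cytoplasm and marked for destruction by KEAP1. When oxidants or electrophiles modify KEAP1, NRF2 is no longer degraded, enters the nucleus, pairs with a small MAF protein and switches on antioxidant genes. The control is therefore largely on the protein, and NFE2L2 mRNA need not follow the activity of the factor. Its classical targets make and recycle glutathione and thioredoxin, repair oxidised peroxiredoxins, break down haem and couple toxic compounds to glutathione. In the rumen, the lining is exposed to fermentation acids, plant compounds and microbial products.

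The libraries held 42322022 to 54449684 counts. Levels are given as CPM, read counts divided by the TMM-scaled library total, which is not corrected for gene length. Correlations of log2 CPM over genes ranged from 0.945 to 0.971 for pairs of calves, from 0.913 to 0.967 for pairs of steers and from 0.859 to 0.901 for a calf and a steer. The quasi-likelihood test of edgeR covered 16326 genes, of which 1257 were higher and 1495 lower in steers at a Benjamini-Hochberg adjusted p under 0.05. With library size alone as the scaling these counts were 835 and 1555, and the median log2 change of all genes moved from 0.04 to -0.07. Without calf 1 the 2752 calls fell to 1734. The tissue label was checked with marker lists. Keratinocyte markers summed to 14369 to 19107 CPM in calves and 12145 to 17179 in steers. The 6 columnar gut markers summed to at most 1.62 CPM, and CDX2 was at 0 in every library. FABP2, also on that list, has a span wholly shared with another gene and could not be counted. Smooth muscle markers summed to 6376 to 18591 CPM in calves and 10944 to 109320 in steers. Among the 9 tested, 4 rose (MYH11, CNN1, DES and LMOD1) and 1 fell (ACTA2). Of 11 tested keratinocyte markers KRT14 rose and COL17A1 fell. Lymphocyte markers rose (CD3E, CD2 and PTPRC, 3 of 4 tested). The sum of the whole list, which includes CD3D, not called, ran from 1.422 to 13.05 CPM in calves and from 6.15 to 28.4 CPM in steers. Fibroblast markers fell in part (COL1A1, COL1A2 and DCN, 3 of 6), with sums of 1625 to 4738 CPM among calves and 566 to 1350.0 CPM among steers. The endothelial marker PECAM1 and the adipocyte marker ADIPOQ fell, 1 of 6 and 1 of 3 tested. The part of these cell types in the members' changes was not tested, apart from the smooth muscle covariate below.

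All 10 members passed the filter on low counts and were tested. Of these, 3 rose in steers (GCLC, GCLM and GPX1), none fell and 7 were not called. Over all tested genes 7.7% were called higher and 9.16% lower. At an unadjusted p under 0.05, edgeR had 5 members higher and 0 lower. All genes were not counted at that threshold, so whether 5 of 10 is a high share cannot be judged. After adjustment DESeq2 called 5 members higher and limma-voom 3, and both called 0 lower. DESeq2 gave no adjusted p for TXNRD1, so it could not call that gene. Among all 16326 genes DESeq2 called 1944 higher and 2136 lower, and limma-voom 1212 and 1629, against 1257 and 1495 with edgeR. The log2 change was above 0 for 7 members, against 52.4% of all tested genes, and its median was 1.07 over the 10 members and 0.04 over all tested genes. The groups did not overlap for 3 members, the same 3 that were called, all higher in steers. Over all tested genes 23.3% had groups that did not overlap in either direction, and 10.5% with steers higher. Without calf 1 only GCLM kept its call, and 705 of all tested genes were called higher, against 1257 with it.

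**Figure D1:**
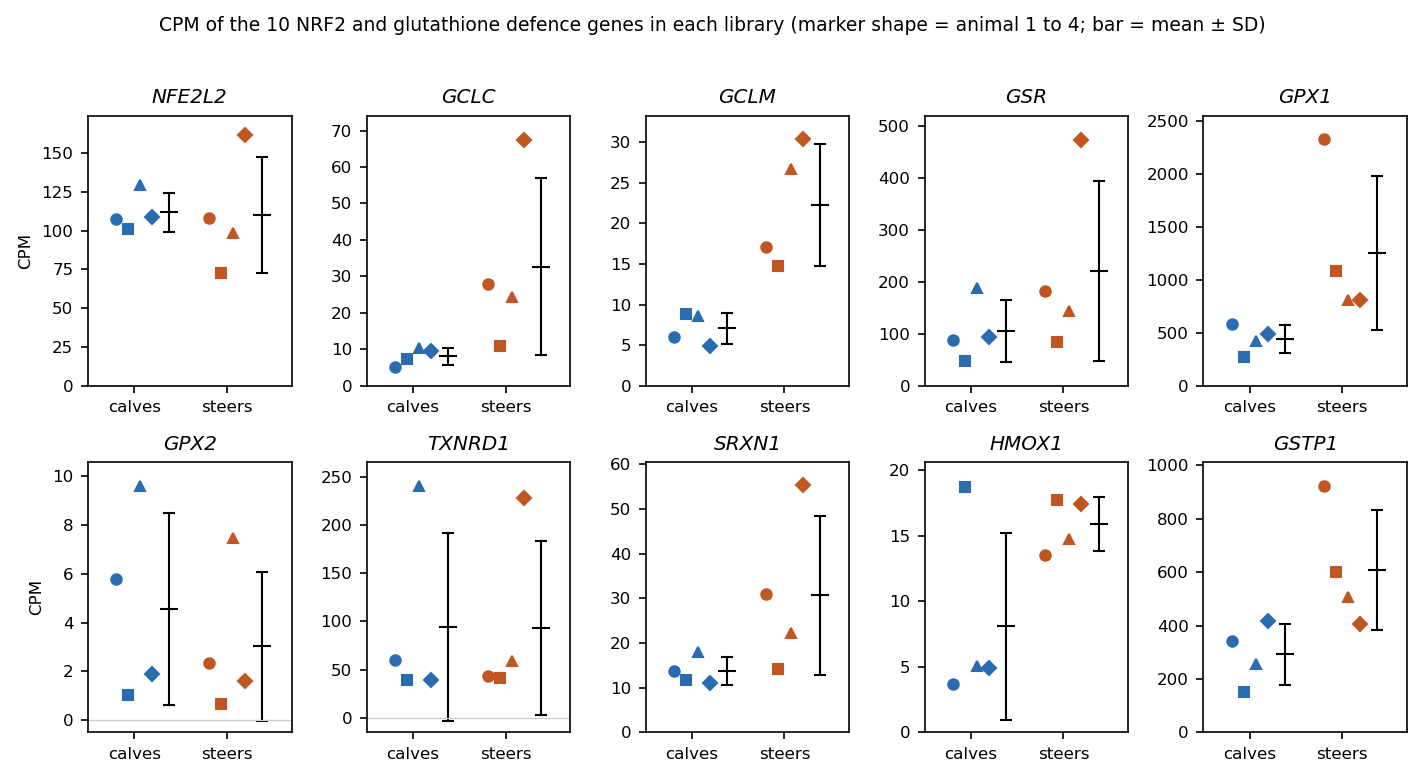
CPM (counts per TMM-scaled library total, linear axis from 0) of each of the 10 genes, with a blue point per calf and an orange point per steer, marker shape giving animals 1 to 4, and black bars giving mean ± SD (n = 4 per group). The orange points lie above all blue points for GCLC, GCLM and GPX1, and 1 animal in each group stands far above the rest for TXNRD1 (240 CPM in calf 3 and 228 in steer 4).

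For the transcription factor itself, the group means differed by less than the spread between animals. NFE2L2 (chromosome 2, 19468309 to 19649655) was at 107, 101, 130 and 109 CPM in calves 1 to 4. In steers 1 to 4 it was at 108, 72.9, 98.1 and 161 CPM. The steers thus lay on both sides of the calves, with steer 2 lowest and steer 4 highest of all 8 animals. The means were 112 ± 12 and 110 ± 37 CPM (SD, n = 4 per group), a log2 change of -0.02 with a 95% interval of -0.57 to 0.53 (edgeR adjusted p = 0.967). Positions here and below are those of the deposited table, and the sources used here do not name its build. The near-zero change turned positive without calf 3 (0.06), steer 2 (0.14) or steer 3 (0.03). Reads were counted over the whole 181347-base span, introns included, of which 4.56% is shared with a gene on the other strand, LOC112443597.

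Both subunits of the enzyme that starts glutathione synthesis rose. GCLC and GCLM encode the catalytic and modifier subunits of glutamate-cysteine ligase, the rate-limiting enzyme of glutathione synthesis. GCLM (chromosome 3, 49581839 to 49599565) was at 6.01, 8.78, 8.54 and 4.89 CPM in calves 1 to 4 and at 17.2, 14.8, 26.7 and 30.4 CPM in steers 1 to 4. The lowest steer was above the highest calf. The group means were 7.06 ± 1.91 and 22.3 ± 7.5 CPM, a 3.15-fold rise with a log2 change of 1.66 ± 0.31 (SE; edgeR adjusted p = 0.00628). GCLM was the one member called under all 20 alternative settings, with log2 changes of 1.47 to 1.96 and edgeR, DESeq2 or limma-voom adjusted p of at most 0.0296.

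GCLC (chromosome 23, 6982199 to 7026875) was at 5.08, 7.23, 10.4 and 9.62 CPM in calves 1 to 4 and at 27.95, 10.97, 24.4 and 67.4 CPM in steers 1 to 4. The groups did not overlap, but steer 2 was only just above calf 3, and steer 4 was far above all other animals. The mean rose from 8.07 ± 2.40 to 32.7 ± 24.3 CPM, 4.05-fold, with a log2 change of 2.02 ± 0.50 (edgeR adjusted p = 0.0218). Without steer 4 the log2 change was 1.39 (adjusted p = 0.0273). The call was lost without calf 1 (adjusted p = 0.0635), without calf 2 (0.0534) and without calf 2 and steer 4 together (0.0514, log2 change 1.34). The ratio of GCLC to GCLM within a library, which does not depend on library scaling, had a mean log2 value of 0.18 ± 0.58 in calves and 0.32 ± 0.73 in steers. This difference of 0.14 was smaller than the spread between animals (two-sided exact permutation test over 70 splits, p = 0.771, adjusted p = 0.771 over 3 gene pairs) and turned to -0.13 without steer 4 and to -0.01 without calf 2.

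Glutathione and thioredoxin reductases, which spend NADPH to regenerate the reduced forms, did not pass the test. GSR (glutathione reductase, chromosome 27, 26801918 to 26846927) was at 88.6, 48.6, 189 and 94.3 CPM in calves 1 to 4. In steers 1 to 4 it was at 183, 83.8, 145 and 474 CPM, so that 1 steer lay below 3 of the calves. Its log2 change was 1.08 with a 95% interval of -0.16 to 2.31 (edgeR adjusted p = 0.216), and 0.39 without steer 4.

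TXNRD1 (cytosolic thioredoxin reductase, a selenoprotein; chromosome 5, 67898938 to 67961974) had 1 high animal in each group. Calves 1, 2 and 4 were at 60.1, 38.9 and 39.1 CPM and calf 3 at 240 CPM. Steers 1, 2 and 3 were at 43.2, 41.7 and 58.6 CPM and steer 4 at 228 CPM. Apart from these animals, the levels overlapped closely. The means, 94.6 ± 97.5 and 92.9 ± 90.5 CPM, gave a log2 change of -0.02 with a wide 95% interval of -1.66 to 1.61 (edgeR adjusted p = 0.985). The change was 1.01 without calf 3, -0.98 without steer 4 and 0.06 without both. It was also positive without steer 1 (0.22), steer 2 (0.23) or steer 3 (0.15). Of its span, 2.36% is shared with another gene, EID3. The log2 ratio of TXNRD1 to GSR averaged -0.45 ± 0.67 in calves and -1.36 ± 0.50 in steers, a difference of -0.91 that did not pass (exact permutation p = 0.0857, adjusted p = 0.171). With 4 against 4 animals the smallest p this test can give is 0.0286.

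The peroxidases GPX1 and GPX2, selenoproteins that reduce hydroperoxides with glutathione, differed in direction of the mean. GPX1 is made in most cells and GPX2 is known as the form of gastrointestinal epithelium. GPX1 (chromosome 22, 50752554 to 50753722, a span of 1169 bases) was at 585, 273, 425 and 493 CPM in calves 1 to 4. In steers 1 to 4 it was at 2323, 1078, 811 and 805 CPM, every steer above every calf and steer 1 far above the rest. The mean rose from 444 ± 131 to 1254 ± 724 CPM, 2.83-fold, a log2 change of 1.499 ± 0.407 (edgeR adjusted p = 0.0322). The call was lost without any 1 calf or without steer 1 (log2 changes 1.03 to 1.68, adjusted p = 0.0553 to 0.0792), although the direction was kept.

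GPX2 (chromosome 10, 77069493 to 77073117) was low in rumen of both ages. Calves 1 to 4 had 5.78, 1.00, 9.60 and 1.88 CPM, from 60 to 456 counts, and steers 1 to 4 had 2.35, 0.668, 7.49 and 1.58 CPM, from 24 to 402 counts. The groups overlapped almost completely, and the highest animal was 9.56-fold above the lowest in calves and 11.2-fold in steers. The log2 change of -0.59 had a 95% interval of -2.42 to 1.24 (edgeR adjusted p = 0.675). It was 0.07 without calf 3 and -1.57 without steer 3. The log2 ratio of GPX2 to GPX1 was lower in steers by 2.00 on average, from -7.00 ± 1.20 to -9.00 ± 1.64, and did not pass (exact permutation p = 0.114, adjusted p = 0.171).

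SRXN1, HMOX1 and GSTP1 had higher means in steers without passing the adjusted threshold. SRXN1 (sulfiredoxin, which restores over-oxidised peroxiredoxins; chromosome 13, 60403292 to 60410158) was at 13.7, 11.8, 18.0 and 11.1 CPM in calves 1 to 4. It was at 31.0, 14.1, 22.2 and 55.3 CPM in steers 1 to 4, so only steer 2 fell within the range of the calves. The log2 change was 1.17 ± 0.38 (edgeR adjusted p = 0.0657). SRXN1 was called with DESeq2 (adjusted p = 0.0214) and, in edgeR, without steer 2 (1.41, adjusted p = 0.0209), and its change was 0.72 without steer 4.

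HMOX1 (haem oxygenase 1, the inducible enzyme that opens the haem ring; chromosome 5, 73623470 to 73630535) was at 3.68, 5.09 and 4.89 CPM in calves 1, 3 and 4, but at 18.7 CPM in calf 2. Steers 1 to 4 lay close together at 13.6, 17.8, 14.8 and 17.4 CPM. All 4 steers were above 3 of the calves, and calf 2 was the highest animal of all. The log2 change was 0.97 ± 0.48 (edgeR adjusted p = 0.202), and 1.80 (adjusted p = 0.00271) without calf 2. Macrophages that clear haem are rich in HMOX1. The 10 macrophage markers, 8 of them tested and 1 (CSF1R) higher in steers, summed to 20.6 to 24.1 CPM in calves and 19.6 to 57.8 in steers. Calf 2 was at 21.6, and AIF1, whose span is wholly shared with another gene, was at 0 throughout. Erythroid markers summed to 1.62 CPM in calf 2, against 1.18 to 5.96 in calves as a whole and 1.24 to 3.55 in steers.

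GSTP1 (a glutathione transferase of many epithelia) is counted over 2 separate stretches of chromosome 29, 45409339 to 45412140 and 45441917 to 45444788. If these stretches are near-identical copies, reads could be split between them or lost, so its level is uncertain. It was at 344, 152, 255 and 418 CPM in calves 1 to 4 and at 925, 599, 508 and 406 CPM in steers 1 to 4. Only calf 4 reached the range of the steers, above steer 4. The log2 change was 1.06 ± 0.37 (edgeR adjusted p = 0.0758). It was called with DESeq2 (adjusted p = 0.0275), and in edgeR with library size as the only scaling (0.0416) or without steer 4 (0.0482).

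**Figure D2:**
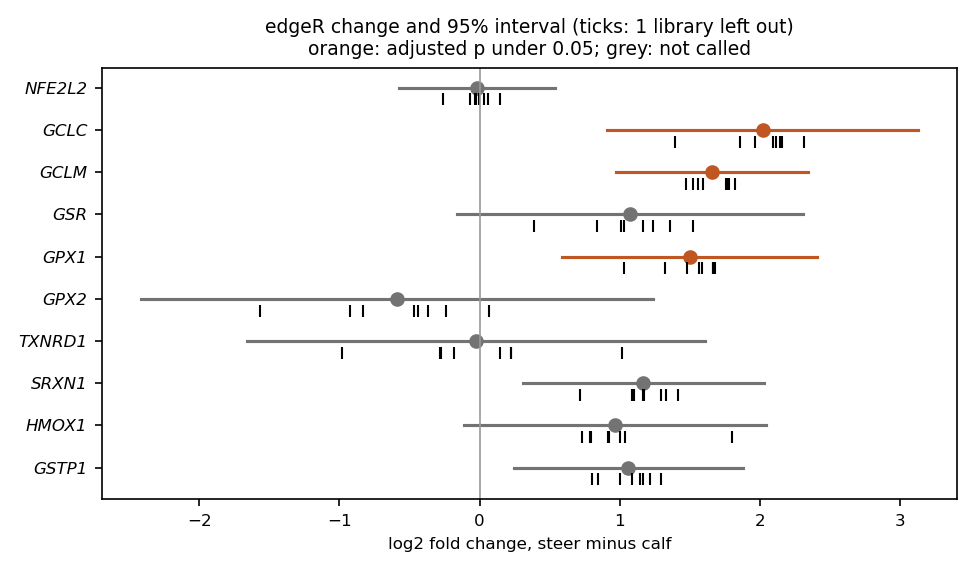
Fitted log2 change, steer minus calf, for each of the 10 genes: the point is the edgeR estimate from all 8 libraries, the horizontal line its 95% interval, and the black ticks below it the estimates with 1 library left out. GCLC, GCLM and GPX1 (orange, adjusted p under 0.05) lie to the right of 0 in every such estimate, whereas the ticks of NFE2L2, GPX2 and TXNRD1 fall on both sides of 0.

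The members split by animal as well as by age. Within calves, calf 3 had the highest level of 6 of the 10 genes and calf 2 the lowest of 6. Within steers, steer 4 was highest for 6 and steer 2 lowest for 7. These ranks were not counted over all tested genes, so they are not shown to be particular to the members. Calf 3 and steer 4 were high for NFE2L2, GSR, TXNRD1 and SRXN1 alike. GPX1 and GSTP1 departed from this order, with steer 1 highest and calf 2 lowest for both and steer 4 the lowest steer. The summed level of smooth muscle markers was lowest in calf 3 (6376 CPM) among calves and in steer 4 (10944 CPM) among steers. It was highest in calf 1 (18591 CPM, against 14092 in calf 2 and 13750.0 in calf 4) and in steer 2 (109320 CPM). The lymphocyte sum was lowest in calf 2 (1.422 CPM) and steer 2 (6.15 CPM) and highest in calf 3 (13.05 CPM) and steer 4 (28.4 CPM). CD3D alone gave 11.3 CPM of it in calf 3 and 15.5 CPM in steer 4. PTPRC was also highest in calf 3 and steer 4 within their groups, but CD3E and CD2 were highest in calf 4 and steer 1. The macrophage sum was also highest of all in steer 4 (57.8 CPM), but lowest among calves in calf 3 (20.6 CPM). The part of lymphocytes and macrophages in the members' levels was not tested.

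When edgeR was given the mean log2 CPM of 9 smooth muscle markers as a covariate, the members called higher were GCLC, GCLM, GSR and SRXN1. With this covariate 1316 of all tested genes were called higher, against 1257 without it. The log2 changes were 2.71 for GCLC, 1.94 for GSR (adjusted p = 0.00243) and 1.7025 for SRXN1 (adjusted p = 0.00172). In the same fit GPX1 was no longer called (1.29, adjusted p = 0.104), and NFE2L2 was at 0.34 (adjusted p = 0.223) and TXNRD1 at 1.19 (adjusted p = 0.126). Smooth muscle content and age are partly bound together in these animals, so this fit does not separate them. Libraries also differed in how level depended on the length of the counted span. The slope of log2 CPM per doubling of span was highest in calf 2 (0.08) and lowest in steer 1 (-0.08). These were the lowest and the highest library for GPX1 (1169 bases) and GSTP1 (5674 bases). Other members with short spans had another order. GPX2 (3625 bases) was lowest in steer 2 and highest in calf 3. SRXN1 (6867 bases) was lowest in calf 4 and highest in steer 4, and HMOX1 (7066 bases) was highest in calf 2. The part of span length in the members' levels was not tested. With the slope as a covariate GCLC, GCLM, GPX1, GSTP1 and HMOX1 were called. Over all tested genes 1721 were called higher with the slope, against 1257 without it.

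**Figure D3:**
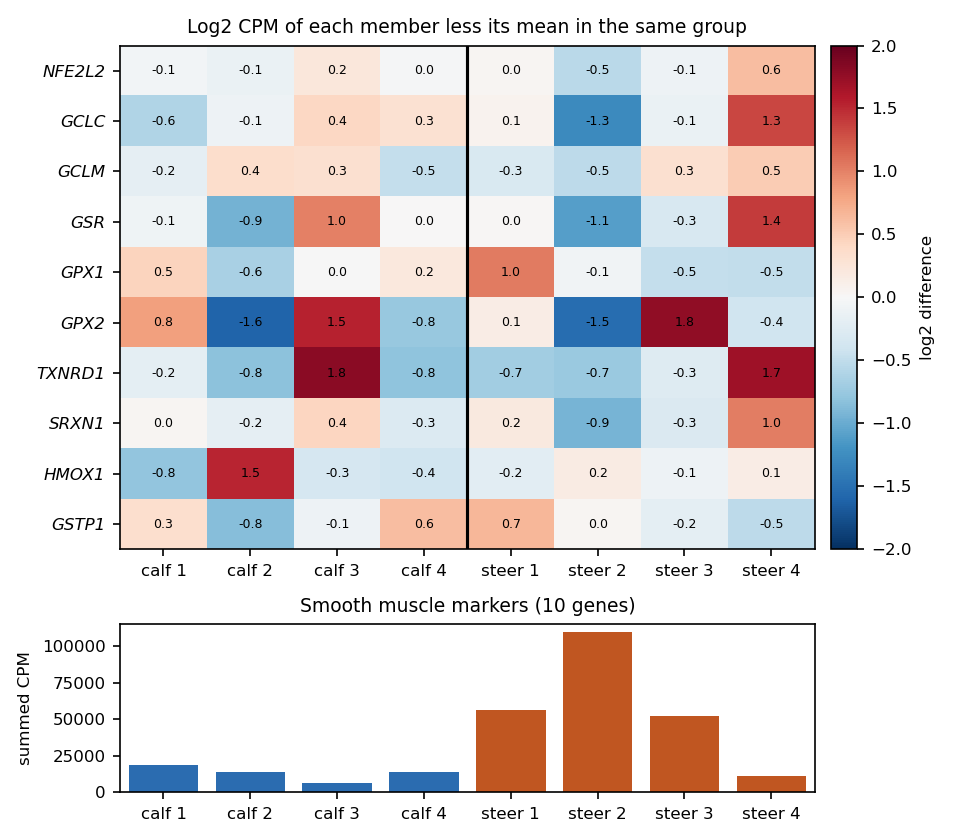
Upper panel: log2 CPM (with 0.1 CPM added) of each gene in each library less the mean of that gene in the same group, with red above and blue below the group mean and a black line between calves and steers. Lower panel: summed CPM of 10 smooth muscle markers per library, on a linear axis from 0; calf 3 and steer 4, red for GSR and TXNRD1, have the shortest bars of their groups.

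Genes with the profile most like that of a member were sought among 14151 tested genes with a symbol, by the root mean square difference of centred log2 CPM over the 8 libraries. For NFE2L2 these were UGGT1 (0.09), IPPK (0.09) and DERL1 (0.10), all with changes near 0 (-0.06, 0.00 and 0.07) and the highest level in steer 4. UGGT1 and DERL1 act in folding and disposal of proteins in the endoplasmic reticulum. For GCLC they were MAPK6 (0.23), NRG1 (0.23) and PLIN2 (0.27), each with its highest level in steer 4 and a log2 change between 1.88 and 2.31. For GPX1 they were PRR19 (0.17), POLD4 (0.21) and D2HGDH (0.21), each with its highest level in steer 1. The like changes and the shared highest animal follow from the way these genes were chosen and are not separate results.

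The other genes of the pathway were taken from 9 lists by function, 118 symbols of which 113 were in the count table and 103 passed the filter. Of the 103, 26 (25.2%) rose in steers and 6 (5.83%) fell, with a median log2 change of 0.45. Over all tested genes 7.7% rose and 9.16% fell, with a median of 0.04. The counts of each list below are to be read against these shares. Without calf 1 the count of higher pathway genes was 14, and that over all tested genes fell from 1257 to 705. The 10 genes that did not pass the filter include CHAC2, GPX8, GSTO1 and CBR1, whose spans lie wholly inside other genes and could not be counted.

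Of 12 regulators and partners 1 (8.33%) rose, near the 7.7% of all tested genes, and none fell, with a median log2 change of 0.09. KEAP1, the sensor that holds NRF2, averaged 88.9 ± 11.95 CPM among calves and 101 ± 18 among steers (edgeR adjusted p = 0.582). BACH1, a repressor that competes for the same sites, was at 8.47 ± 2.65 and 8.15 ± 1.89 CPM (adjusted p = 0.92), and NFE2L1, a relative of NRF2, at 136 ± 17 and 155 ± 32 CPM. The gene that rose was MAFK, a small MAF partner, from 22.1 ± 5.4 to 50.3 ± 17.7 CPM, a log2 change of 1.19 ± 0.29 (adjusted p = 0.0199). Its call was lost without calf 1, calf 3, calf 4 or steer 3, with library size as the only scaling and with the smooth muscle covariate. SQSTM1, whose protein p62 ties up KEAP1, was at 234, 157 and 274 CPM in steers 1 to 3 and at 90.3 to 116 CPM in calves, but at 0.351 CPM in steer 4. It was not called with all libraries (adjusted p = 0.688) and had a log2 change of 1.16 (adjusted p = 0.0105) without steer 4.

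Of 16 tested genes for its synthesis, transport and turnover 4 rose and 1 fell. GSS, which completes glutathione after glutamate-cysteine ligase, rose from 31.6 ± 10.1 to 96.9 ± 21.9 CPM (1.62 ± 0.29, adjusted p = 0.00538), and every steer was above every calf. SLC7A11, the cystine importer, was barely detected: calves 1 to 4 had 8, 0, 2 and 0 counts and steers 1 to 4 had 42, 24, 46 and 46. Its fitted change of 3.91 ± 0.98 (adjusted p = 0.023) rests on 10 counts in calves. It was 5.76 without calf 1, and the call ended without calf 3, calf 4, steer 1 or steer 3. GGT6, of the gamma-glutamyltransferase family that splits glutathione, fell by 2.90 ± 0.34 on the log2 scale, from 112 ± 30 to 14.9 ± 6.0 CPM (adjusted p = 0.000674). The family did not move together. GGT1 rose from 32.2 to 92.3 CPM (log2 change 1.52, edgeR adjusted p = 0.0478) and GGT7 from 1.68 to 4.11 CPM (1.29, 0.0479), both close to the threshold. GGT5 was not called (adjusted p = 0.175). ABCC3, an exporter of conjugates, was at 169 ± 32 and 200.03 ± 73.6 CPM (adjusted p = 0.592).

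Of 16 other glutathione transferases 4 rose and 1 fell. The membrane enzyme MGST3 rose from 156 ± 59 to 741 ± 303 CPM (2.24 ± 0.38, adjusted p = 0.00431), and GSTT2 fell from 67.8 ± 30.7 to 6.51 ± 1.74 CPM (-3.38 ± 0.38, adjusted p = 0.000539). Of 3 tested further glutathione peroxidases none rose and 1 fell, GPX7, a form of the endoplasmic reticulum, from 12.04 ± 1.68 to 3.39 ± 2.06 CPM (adjusted p = 0.0174). GPX7 lost its call without steer 3. GPX4, which protects membrane lipids, was at 102 ± 32 and 131 ± 53 CPM (adjusted p = 0.494). Transferases of 1 class are similar in sequence and can share or lose reads.

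Among thioredoxin, peroxiredoxin and glutaredoxin genes 4 of 19 rose and none fell. The mitochondrial peroxiredoxin PRDX3 rose most, from 21.0, 23.7, 37.1 and 21.8 CPM in calves 1 to 4 to 157, 90.8, 175 and 219 CPM in steers 1 to 4 (2.63 ± 0.31, adjusted p = 0.000747). The cytosolic PRDX1 was at 342 ± 99 and 337 ± 82 CPM (adjusted p = 0.971), and TXN, the thioredoxin that TXNRD1 reduces, at 133 ± 36 and 226 ± 66 CPM (adjusted p = 0.0953). GLRX2, a mitochondrial glutaredoxin, rose least of the called genes, from 28.7 ± 1.5 to 46.4 ± 2.7 CPM (0.69 ± 0.15, adjusted p = 0.0143). Its call was lost without calf 1 (adjusted p = 0.0531) and with library size as the only scaling (0.108). PRDX6, which uses glutathione, was at 557 ± 285 and 1360 ± 1008 CPM (adjusted p = 0.16).

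Of 5 superoxide and catalase genes 2 rose and none fell. SOD1, the cytosolic superoxide dismutase, was at 32.4 to 37.8 CPM in calves and at 65.3 to 85.0 CPM in steers (1.09 ± 0.16, adjusted p = 0.00232). The mitochondrial SOD2 was at 36.5 to 58.1 CPM in calves and 67.5 to 109 CPM in steers (1.01 ± 0.23, adjusted p = 0.0151), and lost its call without calf 1 and with library size as the only scaling. CAT, which breaks down hydrogen peroxide, was at 89.3 ± 21.8 and 119 ± 29 CPM (adjusted p = 0.29). Of 7 genes for haem and iron 2 rose and none fell. The ferritin light chain FTL rose from 404 ± 95 to 910.3 ± 310.6 CPM (1.17 ± 0.30, adjusted p = 0.0256) and the heavy chain FTH1 from 1549 ± 335 to 5362 ± 3166 CPM (1.79 ± 0.47, adjusted p = 0.0269). The FTH1 call was lost without any 1 calf or without steer 1, and the FTL call without calf 2, calf 3, calf 4 or steer 1.

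Of 9 genes for NADPH supply 2 rose and 1 fell. ME1, the cytosolic malic enzyme, rose from 34.3 ± 13.9 to 151 ± 44 CPM (2.14 ± 0.33, adjusted p = 0.00274). PGLS, of the pentose phosphate pathway, fell by 0.64 ± 0.18 on the log2 scale (adjusted p = 0.0367), and without any 1 of calves 1, 3 and 4 or steers 1, 2 and 3 it was not called. Its neighbour in that pathway TALDO1 was at 309 ± 86 and 244 ± 35 CPM (adjusted p = 0.407).

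Of 16 tested further genes reported as NRF2 targets 7 rose and 2 fell, with a median log2 change of 1.41. The quinone reductase NQO1, the most used marker of NRF2 activity, was at 5.19, 3.86, 4.27 and 6.57 CPM in calves 1 to 4. In steers 1 to 4 it was at 52.6, 19.3, 71.3 and 147 CPM, with steer 2 lowest and steer 4 highest as for NFE2L2 and GCLC. NQO1 and ALDH3A1 are also known as targets of the aryl hydrocarbon receptor. ALDH3A1, an aldehyde dehydrogenase, fell by 2.94 ± 0.45 on the log2 scale, from 5.09 ± 1.418 to 0.665 ± 0.368 CPM (adjusted p = 0.00259). NQO2 was at 168 ± 57 and 251 ± 121 CPM (adjusted p = 0.38).

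**Figure D4:**
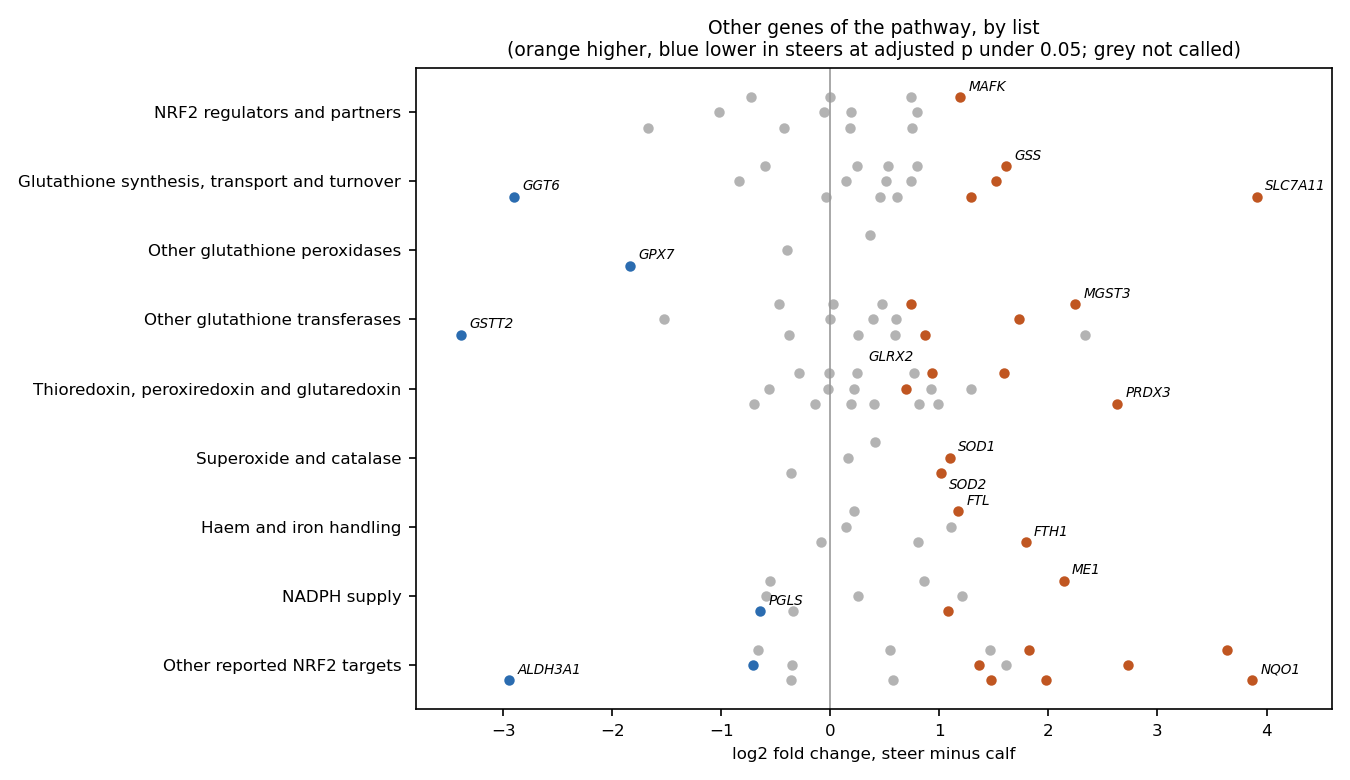
Log2 change, steer minus calf, of each tested gene of the 9 other pathway lists (1 point per gene, spread vertically within a list only to separate points), orange where higher and blue where lower in steers at an edgeR adjusted p under 0.05 and grey where not called. Called genes described in the text, other than GGT1 and GGT7, are labelled. NQO1 (3.87) and SLC7A11 (3.91) lie farthest to the right, and GSTT2 (-3.38) farthest to the left.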

How the data were processed

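Total RNA was extracted from the tissue with TRIzol and a column kit, and dUTP-marked paired-end libraries were made, per the labels' protocols. The submitters' processing notes name Trimmomatic 0.39, STAR 2.7.11a, featureCounts 2.0.2 and DESeq2 1.42.0. The sources used here do not name the build. The authors deposited raw counts, whole numbers for each gene name. Their counting, per the file headers, ran over whole transcript spans without a strand option, so reads in introns count and antisense reads are not told apart. Both mates of a pair were counted, and reads over 2 genes were dropped by that command's defaults. Chromosome numbers come from RefSeq symbols (ARS-UCD2.0), which matched 83.4% of names; coordinates are those of the file.

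The comparison of steers against calves used edgeR 4.0.16 under R 4.3.3 (filterByExpr, TMM, robust quasi-likelihood fit), with an adjusted p under 0.05 over all 16326 genes. The SE was taken from the F statistic. Ratios used 0.1 CPM added to each gene and a two-sided exact permutation test. Alternatives used DESeq2 1.42.0, limma 3.58.1, other scalings and filters, a replicate block, covariates and left-out libraries. The scripts were tested on simulated data. Of seeded 2-fold changes 6% were called, and of seeded 4-fold changes 70%, with 5 false among 81 calls. The simulation held fewer calls than the 2752 of the data, so these shares may not carry over. Members that were not called are not shown to be unchanged.

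No library repeated another (smallest chi-square per degree of freedom 112). The members and lists were chosen with earlier results of these data known. By a set rule the text names all members, and the highest and lowest called gene and the gene with the highest mean CPM of each list. It also names 10 fixed genes, and the 3 genes most like NFE2L2 and the called members with the highest and lowest change. SQSTM1, GSTA1, GGT1, GGT5, GGT7 and the marker and untested genes were added after their values were seen. The search for the antioxidant response element in promoters was not run, and no sequence is printed.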

Additional observations from a re-analysis of the deposited data

Results flagged for a closer look

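Values of 1 animal that stood apart from the other 3 of its group by Dixon's criterion were looked for in 82 groups of 4 values. These covered members, pathway genes named by the set rule and ratios, and chance gives about 1 in 20. There were 8. TXNRD1 was at 240 CPM in calf 3 against 38.9 to 60.1 in the other calves, and at 228 CPM in steer 4 against 41.7 to 58.6 in the other steers. HMOX1 was at 18.7 CPM in calf 2 against 3.68 to 5.09 in the other calves. Calf 2 also stood apart for BACH1 (12.4 CPM against 6.78 to 7.49), GSS (16.6 CPM against 35.2 to 37.6) and TALDO1 (181 CPM against 340 to 361). PRDX3 was at 37.1 CPM in calf 3 against 21.0 to 23.7, and ALDH3A1 at 7.19 CPM in calf 4 against 4.10 to 4.62 in the other calves.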

How the results depend on the processing

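GCLM kept its call under all 20 alternatives, GCLC under 17 and GPX1 under 13. Members called higher numbered 3, and 5 with DESeq2 and 5 with the span slope as a covariate. Over all tested genes these counts were 1257, 1944 and 1721. With 1 library left out, 1 to 4 members were called higher, and 705 to 1473 of all tested genes. No member was called lower under any alternative. Other pathway genes called higher numbered 14 to 30 with 1 library left out (26 with all), and those called lower were 10 with the span slope (6 without it). Over all tested genes 1853 were called lower with the span slope, against 1495 without it. Calls over all genes were 1734 to 3257 with 1 library left out, and 4080 with DESeq2. Animals with the same number showed no clear sign of pairing (correlations of their deviations -0.29 to 0.23, and 1 of 8 libraries correlated best with its own number). A shared batch is not excluded by this. The replicate block gave 1831 calls over all genes and 3 members higher, GCLC, GCLM and GPX1. Among the pathway genes named by the set rule the block ended the calls of GLRX2 (edgeR adjusted p = 0.0714), FTH1 (0.063) and PGLS (0.0911).

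Some changes that were not called changed sign. With the smooth muscle covariate NFE2L2 was at 0.34, TXNRD1 at 1.19, PRDX1 at 0.24, NFE2L1 at -0.041, NQO2 at -0.27 and SQSTM1 at -1.69. Limma-voom gave 0.023 for TXNRD1 and -1.21 for SQSTM1. Without calf 2 and steer 4 BACH1 was at 0.16 and ABCC3 at -0.11. Without calf 3 and steer 4 GPX2 was at 0.29, TXNRD1 at 0.056 and PRDX1 at 0.083. With the span slope TXNRD1 was at 0.028 and BACH1 at 0.17, and with the replicate block PRDX1 was at 0.0041. With 1 library left out the changes were -0.26 to 0.14 for NFE2L2, -1.57 to 0.0696 for GPX2, -0.98 to 1.01 for TXNRD1, -0.20 to 0.19 for BACH1, -0.20 to 0.13 for PRDX1, -0.0261 to 0.38 for ABCC3, and -0.13 to 0.40 for the GCLC to GCLM ratio. The cause was not tested. The span slope and the omission of calf 3 with steer 4 were chosen after seeing the data. The planned search for antioxidant response elements and its alternative were not run. The precision is limited by 4 animals per group and a common coefficient of biological variation of 41.8%.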

Other observations

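Steer 4 had almost no counts over a block of neighbouring genes on chromosome 7 that includes SQSTM1. TBC1D9B, MRNIP, MGAT4B and LTC4S had 0 counts in steer 4, against 2386 to 7148, 255 to 1308, 1839 to 8588 and 50 to 784 counts in the other 7 libraries, and SQSTM1 had 20 counts against 3914 to 14728. The block lies between RNF130 (end at 1327869; 2858 counts in steer 4) and MAML1 (start at 1544015; 1450 counts in steer 4), both counted there as in the other animals. A search over all libraries for genes with at least 5 CPM in the 7 others and under 1% of their lowest level found 4 genes, TBC1D9B, MRNIP, SQSTM1 and MGAT4B, all in steer 4, and 0 in each other library. No member lies in the block. The cause was not tested, and SQSTM1 was singled out after its values were seen.

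Most of the GSTA1 counts in calves came from calves 1 and 4 (175 and 213 CPM, against 6.47 and 29.8 in calves 2 and 3), while steers ranged from 87.8 to 889 CPM. Its log2 change of 2.34 did not pass (edgeR adjusted p = 0.134). GSTA1 was singled out after its values were seen.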
